A study of Mus musculus with 10 samples.

Results

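Genes that take up iron, store it, export it and set its level in the body were examined in 5 tissues of young and aged mice. The list held 10 genes, namely Hamp, Slc40a1, Hmox1, Tfrc, Tfr2, Fth1, Ftl1, Slc11a2, Cybrd1 and Heph. A gene was read through probe sets, groups of short probes near the 3' end of a transcript, whose annotation named that gene and no other. By this rule 22 of 45101 probe sets were taken, and they covered 9 of the 10 genes out of 18194 genes named in this way on the array. Ftl1 was named only by probe sets that also named other genes, and it is described separately.

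The mice were males of ICR, an outbred stock, kept singly on the AIN-93 diet in pathogen-free rooms. The young mice arrived at 2 months and were taken at 4 months of age, and the aged mice arrived at 8 months and were taken at 28 months. Liver, spleen, jejunum, ileum and distal colon were collected, and for every tissue equal amounts of RNA from 6 young or 9 aged mice were mixed and hybridised to a single Affymetrix mouse array. The 10 groups therefore held 1 array each, differences between ages within a tissue had no replicate check, and variation between mice could not be seen. The 3 intestinal arrays of 28 months carry titles worded differently from the other 7, so any preparation difference in the gut cannot be told apart from age.

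Mammals have no regulated route for excreting iron, so its level is set where it enters the blood. In the small intestine ferric iron is reduced at the brush border, carried into the enterocyte and passed to plasma by ferroportin with the help of a copper-containing ferroxidase. Spleen macrophages break down the heme of old red cells and return its iron through the same exporter. The liver senses iron through bone morphogenetic protein (BMP) signalling and secretes hepcidin, a peptide hormone that closes ferroportin, and inflammation raises hepcidin through interleukin 6 and STAT3. Inside cells, iron regulatory proteins bind hairpins in the transcripts of ferritins, ferroportin, the transferrin receptor and one form of the iron importer.

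Signals are given in arbitrary units after each array was scaled to a trimmed mean of 500 units, and values at or below 111 units, the median of all signals, were treated as not above the floor. Because units depend on the probes, signals were compared between arrays and not between genes. Every ratio is 28 over 4 months, and the fold is a lower bound if either age was at the floor. Marker genes were highest on both arrays of the named tissue for liver, spleen, ileum and distal colon: Alb gave 50608 to 51037 units in liver and at most 175 elsewhere, Ms4a1 12818 to 14092 in spleen, Fabp6 20178 to 35831 in ileum and Hoxb13 6355 to 8492 in distal colon. The marker taken for jejunum, Lct, did not set it apart, since it read 12629 and 3600 units in jejunum at 4 and 28 months and 14054 in ileum at 4 months. Pools differed between ages, and in acinar RNA also between tissues, in ways that bear on the results below. The spleen pool of 4 months carried pancreatic acinar RNA, with Cela2a at 8306 units against 57 at 28 months, and all 7 acinar genes measured there were 2-fold or more lower at 28 months. Their summed signal was 35632 units in that pool. Jejunum pools carried acinar RNA at both ages, with sums of 64129 and 66913 units at 4 and 28 months, against 888 and 906 in distal colon. The ileum pool of 4 months carried proximal small intestine genes, with Lct at 92 units at 28 months, and all 9 such genes measured were 2-fold or more lower at 28 months. The jejunum pool of 28 months held less RNA of ileum markers, with Cubn at 73 units against 3631, and 3 of the 5 measured were 2-fold or more lower. All 9 smooth muscle markers were above 0 in ileum, with a summed signal 1.64-fold higher at 28 months. In distal colon all 9 were below 0, and the sum at 28 months was 0.704 of that at 4 months. Of 7 absorptive enterocyte markers measured in distal colon 5 were below 0 and 2 were 2-fold or more lower, with Fabp2 at 4246 and 1049 units. The part of these differences in the results below, between ages or between tissues, was not tested.

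Of the 9 genes, 6 or 7 were measured above the floor in each tissue, making 34 pairs of gene and tissue. Past 2-fold stood Hmox1 in liver and Slc11a2 in jejunum, both higher with age, and no pair lay 2-fold or more lower. In liver 1 of 7 measured genes was higher, where 1.29% of all 12001 measured genes were higher and 0.167% lower. In jejunum 1 of 7 was higher, where 0.252% of 12324 genes were higher and 1.02% lower. No iron gene passed 2-fold in the other tissues, where the shares of all genes higher and lower were 0.528% and 0.411% in spleen, 0.888% and 1.66% in ileum, and 0.51% and 0.526% in distal colon. At 1.5-fold, Tfr2 and Slc11a2 also counted as higher in spleen, as did 3.19% of genes there (1.95% lower), and Slc40a1 counted as lower in ileum, as did 4.17% (5.22% higher). The median log2 ratio of the measured iron genes was 0.20 in liver, 0.04 in spleen, 0.09 in jejunum, -0.01 in ileum and -0.06 in distal colon, against -0.01, 0.01, 0.03, 0.03 and 0.03 over all measured genes. Where a gene had several probe sets above the floor, their log2 ratios differed with an SD whose median over genes ran from 0.11 in liver and jejunum to 0.14 in spleen and distal colon.

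**Figure D1:**
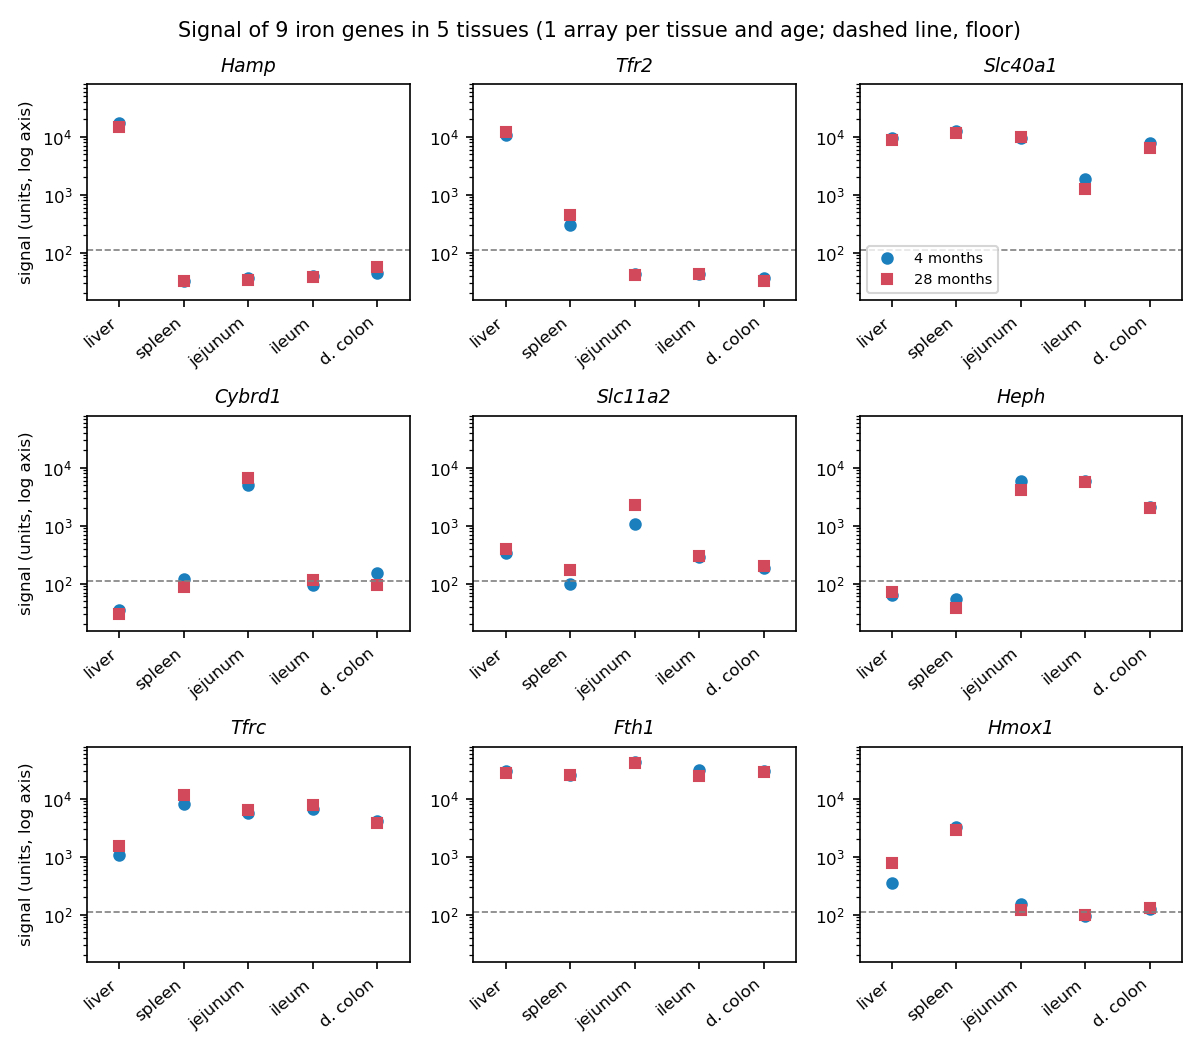
Signal in units on a log axis for the brightest probe set of each of 9 iron genes in the 5 tissues, with 1 array per point, circles for 4 months and squares for 28 months, and the floor of 111 units as a dashed line. Hamp stood above the floor in liver alone and Heph in the 3 gut segments alone. The 2 ages lay 2-fold or more apart only for Slc11a2 in jejunum and Hmox1 in liver.

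**Figure D2:**
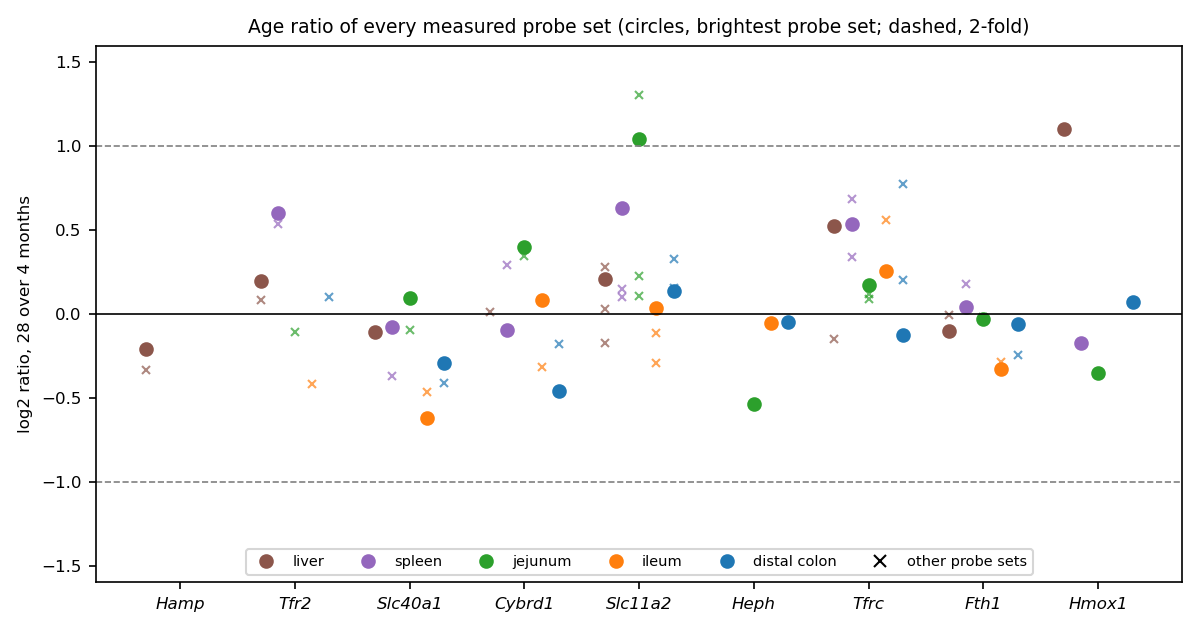
Log2 ratio of 28 over 4 months for every probe set of the 9 genes that was above the floor at either age, coloured by tissue, with circles for the brightest probe set of a gene, crosses for its other probe sets and dashed lines at 2-fold. Slc11a2 in jejunum, at 1.04 and 1.30, and Hmox1 in liver, at 1.10, lie past the upper line, and no point lies past the lower one.

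An age difference shared by all 5 tissues was tested with limma, with tissue as a block, so that tissues stood in for replicates. None of the 9 genes and none of 13995 genes tested passed an adjusted p of 0.05, so 0% were called higher and 0% lower. At an unadjusted p under 0.05 there were 971 genes, and 2 of them were iron genes. Slc11a2 was higher in 5 of 5 tissues by 0.41 on the log2 scale (SE 0.16, 95% interval 0.02 to 0.80, limma adjusted p = 0.71). Tfrc was higher in 4 of 5 by 0.27 (SE 0.11, interval 0.01 to 0.54, adjusted p = 0.71). Both counts are of the brightest probe set, and for Slc11a2 the spleen lay at the floor at 4 months. Of the Slc11a2 probe sets above the floor at both ages, 3 of 4 were above 0 in liver and 1 of 3 in ileum. Slc40a1 had a difference of -0.20 (SE 0.11, interval -0.47 to 0.06, adjusted p = 0.73), with 4 of 5 tissues below 0, and Fth1 one of -0.10 (SE 0.07, adjusted p = 0.77), also with 4 of 5 below 0. For the other 5 genes the differences lay between -0.13 and 0.16, with limma adjusted p of 0.75 to 0.98.

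Hamp encodes hepcidin, and its RNA was a liver transcript at both ages. Its main probe set gave 17046 units in liver at 4 months and 14749 at 28 months, and at most 56 units, below the floor, in spleen and gut. A second Hamp probe set, of a type that can read related transcripts, gave 11382 and 9021 units in liver and at most 105 elsewhere. The log2 ratios of 28 over 4 months were -0.21 and -0.34, neither reaching 1.5-fold, and the second is not independent of Hamp2, described next. Across tissues Hamp was at least 143-fold higher in liver than in the other tissues (log2 difference 7.16, SE 0.07, limma adjusted p = 1.7e-08), where 25.9% of all genes were called higher and 37.5% lower.

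Mice carry a neighbouring copy of the gene, Hamp2, and the RefSeq annotation of GRCm38.p6 lists only a pseudogene, Usf2-ps1, between them. The stretch of each promoter that holds the sites through which BMP and STAT3 signals are known to reach hepcidin is printed here because the copies differ in it. Capitals mark the BMP-responsive element and, after it, the STAT site.
Hamp: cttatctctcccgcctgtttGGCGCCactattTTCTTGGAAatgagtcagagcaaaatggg
Hamp2: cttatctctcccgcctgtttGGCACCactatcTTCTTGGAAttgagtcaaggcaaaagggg
Both run 5' to 3' on the minus strand of chromosome 7, Hamp at chr7:30944098-30944158 and Hamp2 at chr7:30924247-30924307 of GRCm38.p6, and each is 61 bases long. The Hamp stretch runs from 129 to 69 bases before the transcript start. Over the 250 bases before the start the promoters aligned at 247 positions and were identical at 91.9% of them. Within the printed stretch they differed at 6 bases, and 1 of these, G4A counted from the 5' end of the element with the Hamp base first, lies in the BMP-responsive element. The STAT site was the same in both.

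Among 32851 RefSeq promoter windows of 250 bases, read on both strands, 9.59% held GGCGCC, 7.02% held TTCNNNGAA and 0.368% held both, with no overlap between these motifs. Promoter windows were matched for 6 of the 10 genes, Hamp, Tfr2, Tfrc, Fth1, Ftl1 and Cybrd1. GGCGCC also occurred in Cybrd1 and Tfrc windows, TTCNNNGAA in Hamp alone among the 6, and TACGTG, a core recognised by hypoxia-inducible factors and present in 2.72% of windows, in a Tfrc window. A match is a description of letters and not evidence of binding in these tissues.

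Hamp2 was read by a pair of probe sets. The brighter one read 3125 units in liver at 4 months and 1289 at 28 months, 2.42-fold lower, while a dimmer Hamp2 probe set read 142 and 113 units, 1.26-fold lower. In distal colon the brighter one read 322 and 509 units, 1.58-fold higher at 28 months, and it read 90 to 141 in spleen, jejunum and ileum. The brighter one is of the type that can read related transcripts, so the copies cannot be told apart there with certainty. The dimmer one read 85 to 122 units in spleen and gut, so its liver ratio of -0.33 is one of signals close to the floor.

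Acute phase genes were higher on the liver array of 28 months. Of 19 acute phase genes measured in liver 7 were 2-fold or more higher and 18 had ratios above 0, with a median of 0.78. Of all genes measured in liver 1.29% were 2-fold or more higher and 46.7% had ratios above 0. Saa1, a serum amyloid A protein, read 3372 and 32579 units, Saa2 1243 and 21785, and Orm2, an orosomucoid, 201 and 3747. Lcn2, which binds bacterial iron carriers, read 188 and 9366 units. Socs3, an early target of STAT3, read 859 and 1988 units, 2.31-fold higher. Hepcidin itself belongs to the genes that interleukin 6 induces, and its 2 probe sets stood at -0.21 and -0.34 on the same arrays.

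Known regulators of hepcidin were read next, from a list of 22 genes of which 21 were on the array and measured in liver. Their median log2 ratio was -0.03, with 10 above 0 and 11 below, and 1 passed 2-fold. That gene was Fgl1, a secreted liver protein reported to oppose BMP signalling, which read 5830 and 15317 units, 2.63-fold higher. On the inflammatory branch Stat3 had a ratio of 0.58, the receptor chain Il6ra 0.44 and its partner Il6st 0.29. On the BMP branch Hjv, the hemojuvelin co-receptor, had 0.26, Hfe 0.34, Smad1 0.40, and the ligand Bmp6 0.17. The receptors Acvr1, Bmpr1a and Bmpr2 had -0.07, -0.12 and -0.08, Smad4 and Smad5 both -0.06, the hemojuvelin-binding protein Neo1 -0.06 and the protease Furin -0.06, so the branch stood on both sides of 0. Tmprss6, the protease that cleaves hemojuvelin, had -0.03. Of 7 BMP target genes 2 were above 0 and 5 below, with a median of -0.12 and none past 2-fold, where 46.7% of all genes measured in liver were above 0. Those above were Smad6 at 0.20 and Bambi at 0.06. Those below were Id1 at -0.12, Atoh8 at -0.14, Smad7 at -0.04, Id3 at -0.30 and Id2 at -0.58. Levels of 9 hepatocyte markers had a median ratio of -0.01 in liver.

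**Figure D3:**
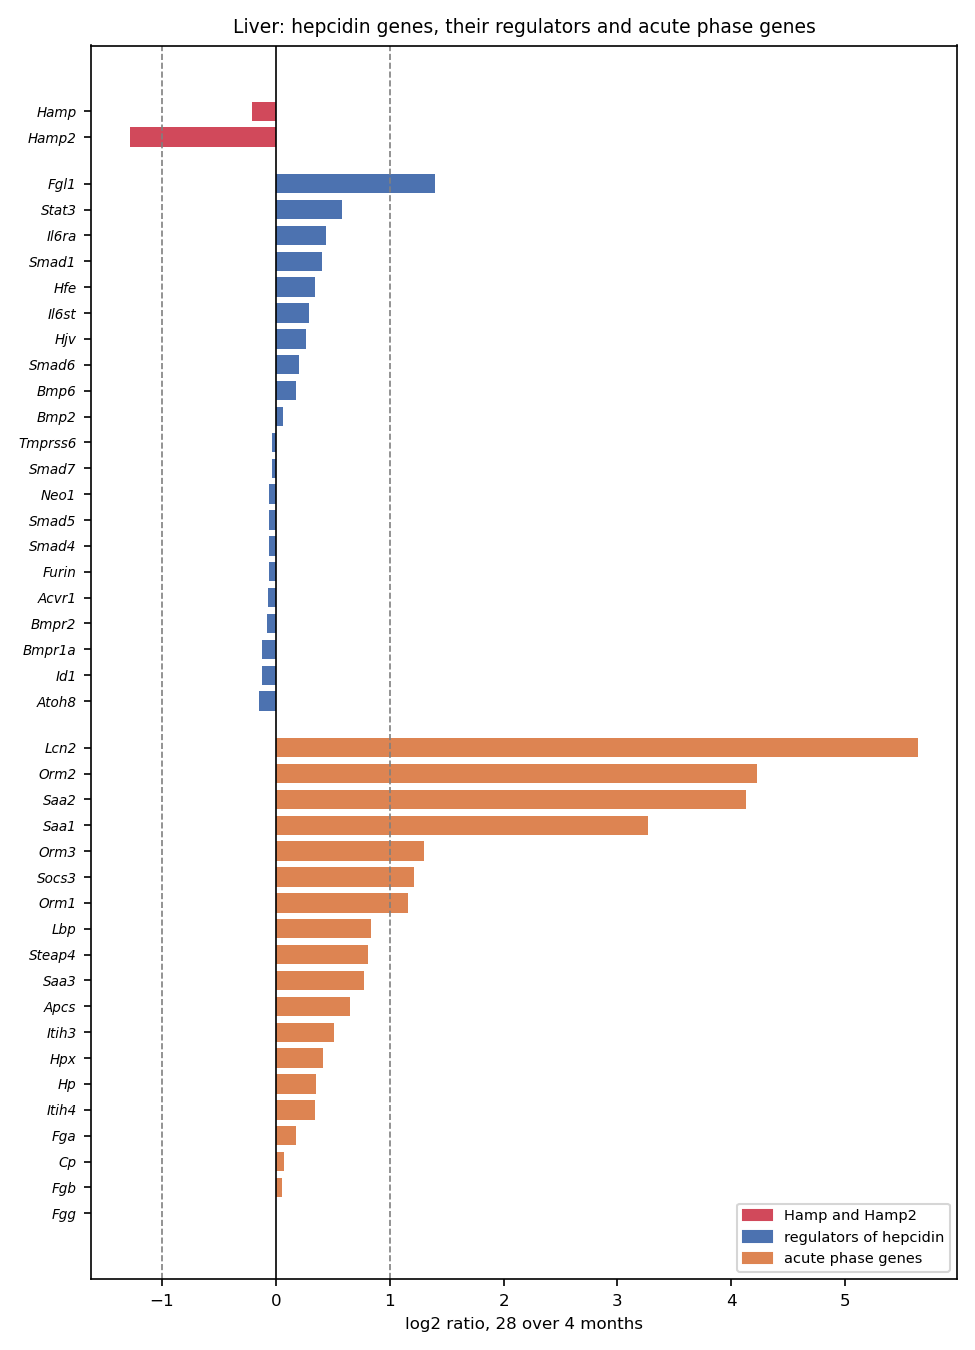
Log2 ratio of 28 over 4 months in liver, with 1 bar per measured gene, for Hamp and Hamp2, regulators of hepcidin and acute phase genes, and dashed lines at 2-fold. Hamp, at -0.21, lies below 0, Fgl1 is the regulator past 2-fold at 1.39, and acute phase genes reach 5.64 for Lcn2.

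Tfr2, transferrin receptor 2, is the liver's sensor of iron-loaded transferrin and is also present in erythroid precursors. Its brighter probe set read 10642 and 12191 units in liver at 4 and 28 months, 297 and 452 in spleen, and at most 43 in the gut. The other probe set read 6867 and 7275 units in liver, 394 and 572 in spleen and 184 to 260 in the gut. Liver was at the top on both probe sets and spleen came next, 31.1-fold below liver on the brighter one, with no overlap between the ages of the tissues. By limma Tfr2 was higher in liver than in the other tissues by 6.25 (SE 0.13, adjusted p = 3.7e-07), a lower bound because the gut lay at the floor. The SE and p rest in part on gut signals set to the floor, which carry no spread. In spleen the ratios of the probe sets were 0.60 and 0.54, both 1.5-fold or nearly so, and in liver 0.20 and 0.08.

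Slc40a1 is ferroportin, the only known cellular iron exporter in mammals. Its brighter probe set read 12422 and 11751 units in spleen, 9416 and 10048 in jejunum, 9370 and 8695 in liver, 7893 and 6437 in distal colon, and 1894 and 1232 in ileum. The ileum therefore stood apart at the low end, 4.67-fold below distal colon, while the other tissues lay within a narrow range, with jejunum and liver 1.08-fold apart. The second probe set also had ileum last, at 505 and 365 units, but its top tissue was jejunum, at 3789 and 3552 units, with 3426 and 2647 in spleen, 2891 and 2672 in liver and 1984 and 1491 in distal colon. Spleen exceeded the mean of the other tissues by 1.12 on the log2 scale (SE 0.13, limma adjusted p = 0.00052), where 33.4% of genes were called higher and 33.3% lower. That difference was 0.50 (adjusted p = 0.0065) without the ileum. Liver exceeded the mean of the other tissues by 0.59 (adjusted p = 0.0092), though on the brighter probe set it lay below spleen and jejunum. The liver difference turned to -0.06 (adjusted p = 0.58) without the ileum. Both probe sets were lower in ileum at 28 months, with ratios of -0.62 and -0.47, and in distal colon, with -0.29 and -0.41. In liver they stood at -0.11 and -0.11 and in spleen at -0.08 and -0.37. The jejunum probe sets went in opposite directions, at 0.09 and -0.09. The ileum value stands beside the loss of proximal intestine genes described above, whose median ratio there was -4.66. Smooth muscle markers had medians of 0.70 in ileum and -0.52 in distal colon, and the part of these pool differences was not tested.

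Heph, hephaestin, is the membrane ferroxidase that works with ferroportin in the enterocyte, and 1 probe set read it. In jejunum it gave 6015 units at 4 months and 4151 at 28 months, in ileum 5951 and 5724, and in distal colon 2090 and 2024, with at most 72 in liver and spleen. Gut exceeded liver and spleen by at least 5.14 on the log2 scale (SE 0.10, limma adjusted p = 2.6e-07), where 31.7% of genes were called higher and 32.4% lower. The SE and p rest in part on liver and spleen signals set to the floor, which carry no spread. Jejunum and ileum overlapped between ages, and ileum and jejunum both lay above distal colon. The jejunal ratio was -0.53, 1.45-fold lower, and the ratios in ileum and distal colon were -0.06 and -0.05. In the same jejunum pools 11 of 12 absorptive enterocyte markers were below 0, with a median of -0.70, and Vil1, the brush border protein villin, stood at -0.32. Of all genes measured in jejunum 55.9% were above 0.

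Cybrd1 and Slc11a2 act in iron entry at the brush border. Cybrd1, the ferric reductase also called duodenal cytochrome b, read 5141 and 6789 units in jejunum on its brighter probe set and 30 to 152 units elsewhere. Its second probe set read 1156 and 1468 units in jejunum and 129 to 177 elsewhere. The 28-month pool was above the 4-month pool on both, with ratios of 0.40 and 0.34, short of 1.5-fold. The jejunum pools also differed in ileum markers, as described above, and the part of this was not tested. Jejunum exceeded distal colon, which was at the floor at 28 months, by at least 5.51 on the log2 scale (SE 0.19, limma adjusted p = 3.4e-05), where 13.9% of genes were called higher and 23.5% lower. With the median over probe sets the difference was 4.41, and on the second probe set alone the mean signals were 1303 and 142 units. The gut as a whole exceeded liver and spleen by 1.98 (adjusted p = 3.6e-05), a size set in part by the floor, at which liver lay at both ages and spleen, ileum and distal colon at 1 age each. It rested on the jejunum, since the difference was 0.11 without it (adjusted p = 0.42).

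Slc11a2 encodes DMT1, the importer that carries ferrous iron into enterocytes and out of endosomes. On its brightest probe set the jejunum read 1086 units at 4 months and 2233 at 28 months, 2.06-fold higher, and 24 of 12324 measured genes had a ratio that high in jejunum. The same probe set read 338 and 390 units in liver, 292 and 300 in ileum, 183 and 201 in distal colon, and 99 and 172 in spleen, at least 1.55-fold higher. A second probe set read 469 and 1157 units in jejunum, 2.47-fold higher. The remaining probe sets read 417 and 450 units and 562 and 657 units there, 1.08- and 1.17-fold higher. All 4 were thus above 0 in jejunum, but they split into a pair near 2-fold and a pair near no difference, with a mean of 0.67 and an SD of 0.59. Slc11a2 is known to be made with alternative 3' ends, one with and one without an iron-responsive hairpin, and the positions of the probe sets on these forms were not used here.

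Elsewhere the spread between Slc11a2 probe sets was smaller, though this difference was not tested. In liver the 4 ratios ran from -0.17 to 0.28, in ileum the 3 above the floor from -0.29 to 0.04, and in distal colon 3 from 0.14 to 0.33. In spleen the 2 probe sets above the floor at both ages stood at 0.10 and 0.15, well under the bound of the brightest one. Jejunum exceeded distal colon by 3.02 on the log2 scale on the brightest probe set (SE 0.25, limma adjusted p = 0.00078) and by 1.76 with the median over probe sets (adjusted p = 0.003). The flatter pair of probe sets had mean signals of 433 against 237 units and 608 against 202 units in these segments. The mean of the gut exceeded the mean of liver and spleen by at least 0.99, spleen being at the floor at 4 months (adjusted p = 0.0022). This difference was 0.09 without the jejunum (adjusted p = 0.54) and 0.29 without the spleen (adjusted p = 0.33). Of 10 proximal small intestine markers 2 were above 0 in jejunum and 8 below, with a median of -0.17, from -1.81 for Lct to 0.65 for Pdx1. All 5 ileum markers measured in these jejunum pools were below 0, with a median of -1.51. The part of these pool differences in the jejunal Slc11a2 ratios was not tested.

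**Figure D4:**
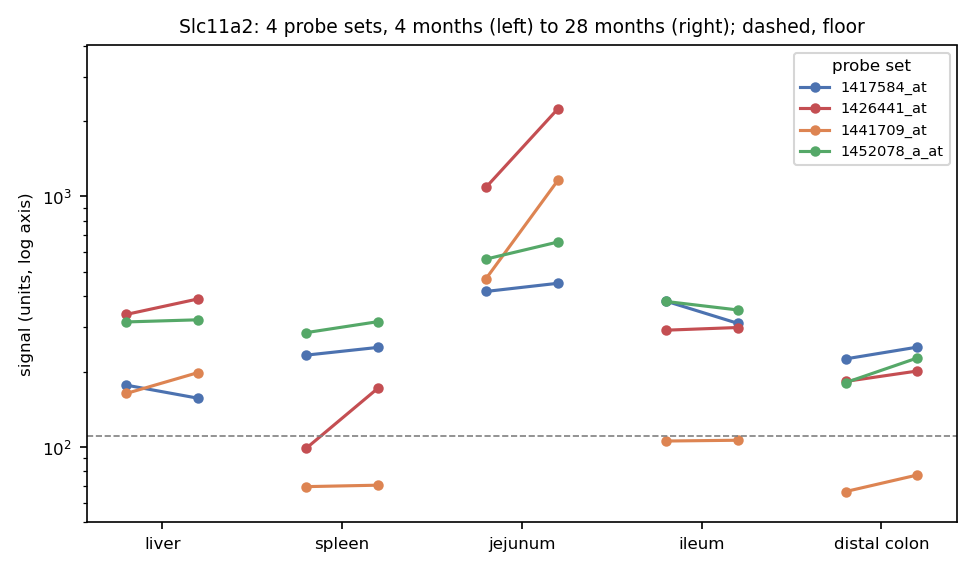
Signal in units on a log axis for the 4 Slc11a2 probe sets in each tissue, with lines joining the array of 4 months (left) to that of 28 months (right) and the floor of 111 units dashed. In jejunum the lines that end at 2233 and 1157 units are steep, and the other lines are nearly flat.

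Tfrc is transferrin receptor 1, the main route of iron into dividing cells and red cell precursors. Its bright probe set read 8116 and 11776 units in spleen, 6639 and 7927 in ileum, 5650 and 6368 in jejunum, 4121 and 3774 in distal colon, and 1075 and 1544 in liver. On this probe set spleen led and liver was last, with no overlap of ages between neighbours in this order. A dimmer probe set, at 173 to 496 units, also had spleen on top, but there the ages of the other tissues overlapped. Spleen exceeded the other tissues by 1.34 (SE 0.14, limma adjusted p = 0.00025), and the difference of liver from them was -2.31 (adjusted p = 3e-05). Both calls were lost with the median over probe sets, at 0.17 (adjusted p = 0.12) and -0.043 (0.69). Dim Tfrc probe sets, some below the floor on all arrays, pulled that median to the floor or near it. That setting therefore cannot test tissue differences of Tfrc. Jejunum exceeded distal colon by 0.60 (adjusted p = 0.037), a call lost without liver (adjusted p = 0.069), spleen (0.057) or ileum (0.065), and with the median over probe sets, where the difference was 0.00. The mean of the gut exceeded the mean of liver and spleen by 0.65 (adjusted p = 0.0027), though spleen lay above every gut segment. This turned to -0.82 without liver (adjusted p = 0.01), since the 2 reference tissues are the extremes.

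The age ratio of Tfrc was 0.54 in spleen, 0.52 in liver, 0.26 in ileum, 0.17 in jejunum and -0.13 in distal colon. In spleen the 3 probe sets above the floor all read higher at 28 months, with ratios from 0.34 to 0.69. In liver a dimmer probe set, at 254 and 229 units, had -0.15, and in distal colon it had 0.78, so the sign there depends on the probe set. Array control probe sets for the 5' and middle parts of Tfrc stayed below the floor on all 10 arrays, at 54 units or less, and the 3' control read 143 and 181 units in spleen.

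Erythroid markers were read in the same spleen pools. All 10 measured were above 0, none past 2-fold, with a median of 0.61, where 51.9% of all genes measured in spleen were above 0. Slc4a1, the red cell anion exchanger, read 12862 and 18345 units, Klf1, an erythroid transcription factor, 3376 and 5145, and Rhag, of the Rh complex, 1198 and 2095. All 8 heme synthesis genes were above 0 with a median of 0.38, from 0.12 for Alas1, the enzyme used outside the red cell line, to 0.78 for Cpox. All 9 dividing cell markers were also above 0 (median 0.58), and all 9 B cell markers were below 0 (median -0.41). In liver 2 of 5 measured erythroid markers were above 0, with a median of -0.10. The summed signal of the acinar genes in the spleen pool of 28 months was 0.0158 of that at 4 months, and its part in these ratios was not tested. Whether more erythroid cells or more RNA per cell lay behind the splenic levels cannot be told apart in pooled tissue, here and for the other cell types named.

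**Figure D5:**
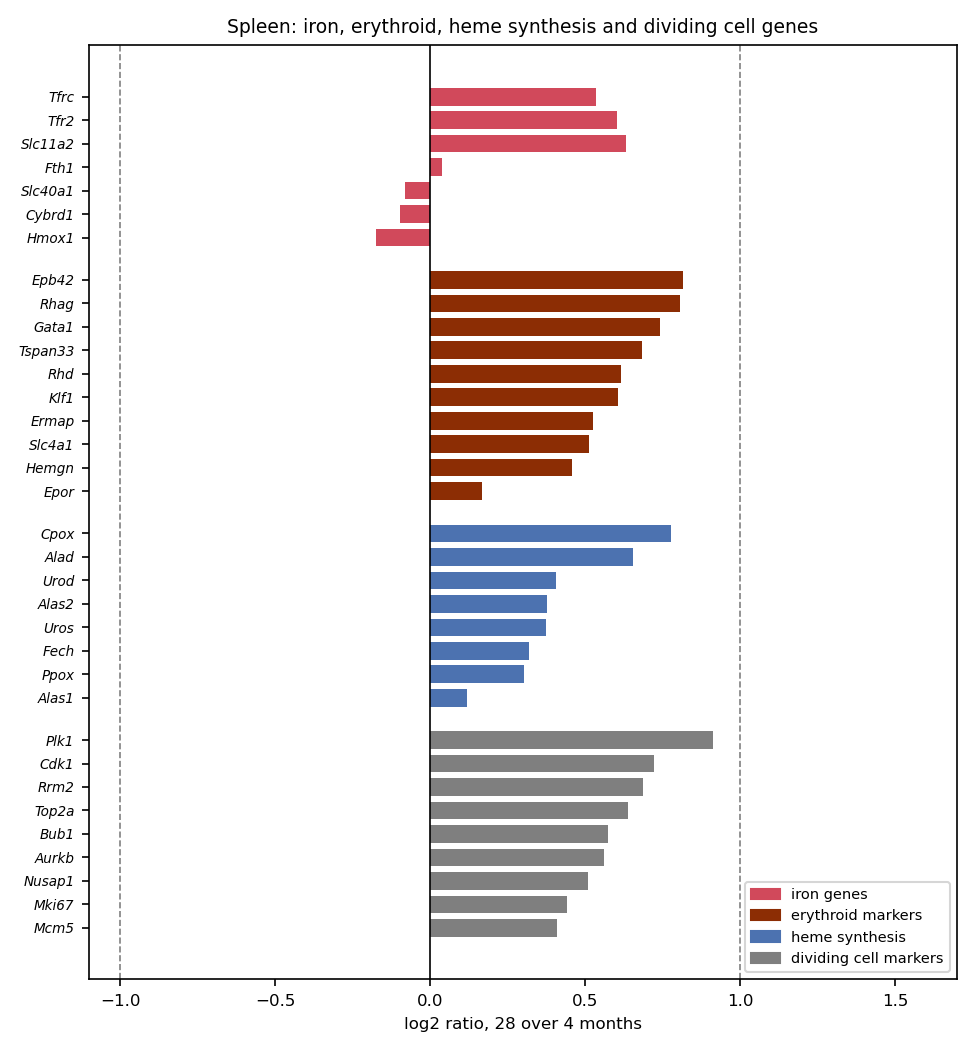
Log2 ratio of 28 over 4 months in spleen, with 1 bar per measured gene, for iron genes, erythroid markers, heme synthesis genes and dividing cell markers, and dashed lines at 2-fold. Bars of Tfrc (0.54), Tfr2 (0.60) and Slc11a2 (0.63, a lower bound) are of the size of the erythroid bars, whose median is 0.61, and no bar reaches 2-fold.

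Ferritin stores iron in a shell of heavy and light chains. Fth1, the heavy chain with ferroxidase activity, read 42904 and 42039 units in jejunum, 31645 and 25172 in ileum, 30535 and 29256 in distal colon, 29613 and 27592 in liver, and 25508 and 26201 in spleen. Jejunum stood 1.42-fold above the next tissue and the others overlapped in their order. Jejunum exceeded distal colon by 0.51 on the log2 scale (SE 0.11, limma adjusted p = 0.014). Both Fth1 probe sets were lower in ileum at 28 months, with ratios of -0.33 and -0.29, and the other tissues lay between -0.25 and 0.18. The ileum and distal colon pools differed between ages as described above, and the part of this was not tested.

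The light chain gene Ftl1 was read by 3 probe sets that also name its pseudogene Ftl1-ps2, 1 of them also naming microRNA genes, so they cannot be assigned to it alone. The brightest of them read 18403 and 17319 units in liver, 16339 and 17569 in spleen, 12736 and 12207 in jejunum, 12378 and 11112 in ileum, and 9781 and 9880 in distal colon. Liver and spleen were above the gut at both ages, unlike Fth1, for which jejunum was on top. Its ratios ran from -0.16 in ileum to 0.10 in spleen, and the dimmest of the 3 reached 0.52 in spleen.

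Hmox1, heme oxygenase 1, frees iron from heme and is read by 1 probe set. It gave 3272 and 2897 units in spleen, 356 and 764 in liver, 154 and 120 in jejunum, and 123 and 130 in distal colon, and lay below the floor in ileum, at 95 and 97. Spleen exceeded the other tissues by at least 4.12 on the log2 scale (SE 0.26, limma adjusted p = 3.9e-05), a lower bound because the ileum was at the floor. Liver lay below spleen but exceeded the mean of the other tissues by at least 0.92 (adjusted p = 0.023). That call was lost without the jejunum (0.57, adjusted p = 0.13), ileum (0.47, 0.23) or distal colon (0.54, 0.21), and without the filter on low genes (adjusted p = 0.072). In liver the 28-month pool was 2.14-fold above the 4-month pool, and in spleen the ratio was -0.18.

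Macrophage markers were higher in the same liver pool. All 17 measured were above 0, 5 of them 2-fold or more, with a median of 0.93 and a summed signal 1.87-fold higher. Of all genes measured in liver 46.7% were above 0 and 1.29% were 2-fold or more higher. Marco, a scavenger receptor, read 215 and 765 units, C1qb, of complement C1q, 686 and 2047, Lyz2, a lysozyme, 1172 and 3449, and Cd68 232 and 512. Clec4f, which marks Kupffer cells, read 1208 and 2211 units. Cd163, the macrophage receptor for haptoglobin-bound haemoglobin, which was listed with the heme clearance genes, read 854 and 756 units. In spleen 9 of 15 macrophage markers were above 0, with a median of 0.08 and a summed signal 1.05-fold higher, and Spic, the factor of red pulp macrophages, read 2047 and 1847. Other targets of NRF2, a known activator of Hmox1, had mixed ratios in liver, at 0.84 for Nqo1, 0.24 for Txnrd1 and -0.02 for Gclm, and its repressor Bach1 stood at -0.02. The part of macrophage RNA in the hepatic Hmox1 level was not tested.

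The other iron and heme genes were read from lists of the pathway. In iron transport, 15 genes were on the array and 1 of 15 measured in liver (Lcn2), 2 of 12 in spleen (Lcn2 and Ltf, lactoferrin) and 0 of 12 in jejunum were 2-fold or more higher, none being that much lower. Among all measured genes 1.29% in liver, 0.528% in spleen and 0.252% in jejunum were 2-fold or more higher. Spleen Lcn2 read 372 and 1285 units and Ltf 631 and 1786. In ileum 1 of 13 was lower, as were 1.66% of all genes measured there. It was Slc46a1, a folate and heme carrier of the upper intestine, which read 1038 and 142 units, 7.33-fold lower, beside the proximal markers that were lower in the same pool. Hepatic Cp, ceruloplasmin, read 23134 and 24319 units, and Slc39a14, an importer of iron not bound to transferrin, 3521 and 3903. Steap4, a ferric reductase induced in inflammation, read 3240 and 5684 units in liver.

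Other storage and sensing genes stayed under 2-fold. Of 9 measured in each tissue none passed 2-fold, and medians ran from -0.24 in ileum to 0.08 in liver. Ireb2, which encodes iron regulatory protein 2, was below 0 in 5 of 5 tissues, with ratios from -0.58 in ileum to -0.18 in distal colon, and Fbxl5, which directs its breakdown, had ratios from -0.63 in ileum to 0.12 in liver. Among genes for clearing heme and haemoglobin, Hp, haptoglobin, read 380 and 1082 units in spleen, 2.84-fold higher, and 30339 and 38780 in liver, and Hpx, hemopexin, 26678 and 35432 in liver. Nqo1 read 377 and 175 units in distal colon, 2.15-fold lower. Iron-sulfur cluster genes had 0 of 10 past 2-fold in any tissue, with medians from -0.06 in liver to 0.13 in spleen.

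For each of the 9 genes the profiles most like it over the 10 arrays were found by Pearson correlation of log2 signals among genes above the floor on at least 2 arrays. These arrays share tissues, so the coefficients describe tissue distribution. Tfrc was most like Arrb1 (r = 0.992), Pclaf (0.991), a replication-associated protein, and Rb1 (0.986). Hmox1 was most like Iffo1 (0.994), Cd300lb (0.991) and Marco (0.991), Cybrd1 like 2310057J18Rik (0.998), Nkx6-3 (0.998) and Pdx1 (0.997), and Heph like Trim31, Vil1 and Cdhr2 (0.9998, 0.9996 and 0.9995). Slc40a1 had lower coefficients, led by Ciao3 (0.905), Psmd13 (0.904) and Ctse (0.882). Slc11a2 was closest to Slc19a1 (0.958), Nbas (0.944) and Etohd2 (0.934), Fth1 to Ahcyl1 (0.978), Otp (0.9445) and Kcnk10 (0.943), and Tfr2 to Hp, Aqp9 and Gm4951 (all 0.997). For Hamp the measure was not informative, since 268 genes reached r above 0.99 with it by being high in liver alone, Asgr2, Abca8b and Dpys first among them.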

How the data were processed

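Per the labels, pooled RNA of 5 tissues at 2 ages was converted to biotinylated cRNA with a kit that primes from the 3' end, for 10 arrays. The authors deposited 1 log2 signal for each probe set and array. The submitters' processing notes name MAS5 and affy without version or role, and how the signals were normalised is not given in the sources used. Base 2 was inferred from the range, 2.71 to 14.8. Detection calls were not used here.

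Signals were taken out of the log and scaled to a trimmed mean of 500 units (2% off each end; factors 2.42 to 2.57), and signals below the median, 111 units, were set to it for ratios and fits. Of 45101 probe sets 34958 named 1 gene, with symbols updated by gene ID, and 932 several. The brightest probe set stood for a gene, and its others are given for the listed genes. A gene was measured in a tissue when above the floor at either age, and called from 2-fold. With 1 array per group no test was made within a tissue, and the number of arrays limits the precision.

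limma (lmFit, eBayes) was fitted to 13995 genes above the floor on any array, with tissue and age as terms and Benjamini-Hochberg adjustment. The age term takes tissues as replicates, and the tissue contrasts take ages as replicates. Signals set to the floor are equal between ages, so the SE and p of contrasts that rest on them do not measure spread there. List genes were named when past 2-fold with a signal of at least 221 units, up to 4 per list and tissue, and others were named by their role after values were seen. The genes, lists and tests were chosen with earlier results of these data known. The 2-fold rule and the limma fit were also run on simulated data. Promoters came from RefSeq tables of GRCm38.p6. Python 3.11.15, numpy 2.4.6, pandas 2.3.3, R 4.3.3 and limma 3.58.1 were used. Alternatives are given in the closing section.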

Additional observations from a re-analysis of the deposited data

How the results depend on the processing

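Most results kept their size under the other settings tried. Of 349 recomputed log2 ratios of the iron genes, Hamp2 and the acute phase genes Saa1, Saa2, Lcn2 and Socs3, 38 moved by more than the spread between probe sets and no called ratio changed sign. Hepatic Hmox1 ran from 0.67 to 1.15 and jejunal Slc11a2 from 0.77 to 1.04. With the floor at percentile 75 the count of iron genes 2-fold higher in liver was 0, and with the median over probe sets that in jejunum was 0, as both were at 3-fold. At 1.5-fold 2 counted as higher in spleen and 1 as lower in ileum. Among all genes, the floor at percentile 75 gave 56 higher and 8 lower in liver (155 and 20 with the floor at the median), 26 and 22 in spleen (63 and 49), 14 higher in jejunum (31), 46 and 138 in ileum (111 and 208), and 16 and 35 in distal colon (63 and 65). At 3-fold the counts were 40 and 5, 20 and 27, 3 and 37, 7 and 95, and 8 and 29 in the same order, and at 1.5-fold 480 and 96, 380 and 232, 248 and 375, 653 and 521, and 318 and 290.

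The shared age difference gave 0 iron genes under every limma setting, and 1 gene in all with the median over probe sets (higher) and 1 without the filter (lower). Over the limma settings, iron genes called higher in the gut mean than in that of liver and spleen ranged from 2 to 5. Those called higher in liver than in the mean of the other tissues ranged from 2 to 4. Among all genes these counts ran from 3904 to 4736 and from 3353 to 3906. In the main fit they were 31.7% and 25.9% of 13995 genes. Called differences that turned were those of Tfrc between gut and the other organs and of Slc40a1 between liver and the rest. That of Tfrc ran from -0.82 without liver to 2.11 without spleen. It was -0.086 with the median over probe sets, which dim probe sets pulled to the floor. That of Slc40a1 ran from -0.063 without ileum to 0.93 without spleen. Among differences not called, that of Tfr2 between spleen and the rest turned (from -0.50 without jejunum, ileum or distal colon, when liver weighs more, to 1.73 without liver), as did that of Slc11a2 between liver and the rest (0.13, with a range of -0.29 to 0.87) and of Fth1 between them (-0.12, with a range of -0.21 to 0.033). The age fit pairs the ages within each tissue, and no fit with a replicate number could be made because each group holds 1 array. Signals near the floor carry only bounds.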
